A study of Homo sapiens with 12 samples.

Results

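The genes described here are 9 components of transforming growth factor beta (TGF-beta) signalling: the ligand genes TGFB1 and TGFB2, the receptor genes TGFBR1 and TGFBR2, the signal transducer SMAD3, the inhibitors SMAD6, SMAD7 and SKIL, and the extracellular protein gene TGFBI. They were taken by gene symbol from a table of RNA-seq read counts, in which they are 9 of 40591 lines that carry a symbol. The cells were ARPE-19, an established human line derived from retinal pigment epithelium (RPE), the layer of cells behind the photoreceptors. Stable lines were sampled at day 4 of expressing an open reading frame (ORF). There were 4 groups of 3 libraries: WT, for which the labels name no ORF; GFP, expressing green fluorescent protein; GSTA4, expressing glutathione S-transferase alpha 4, an enzyme that conjugates lipid aldehydes to glutathione; and OSK, read here as POU5F1 (OCT4), SOX2 and KLF4, which are reprogramming transcription factors. No other genotype or treatment is given. The labels do not say how many stable lines stand behind a group, nor whether the 3 libraries came from separate cultures, so the ORF and the line cannot be told apart and the p-values measure the spread between these libraries alone.

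TGF-beta ligands are secreted in a latent form and, once released, bind TGFBR2, which recruits and phosphorylates TGFBR1. The activated TGFBR1 kinase phosphorylates SMAD2 and SMAD3, which join SMAD4, enter the nucleus and change transcription, also at genes of the pathway's own inhibitors. SMAD7 and SKIL are such induced inhibitors, SMAD6 acts mainly against the related bone morphogenetic protein (BMP) signal, and TGFBI is a matrix protein named for its induction by TGF-beta. In RPE cells the pathway is best known for its part in the shift from an epithelial to a fibroblast-like, matrix-producing state.

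The positions of the 9 genes are given here in build GRCh38 from GENCODE release 29, with start and end of the whole gene. TGFB1 lies on chromosome 19 from 41301587 to 41353911 on the minus strand, and TGFB2 on chromosome 1 from 218346235 to 218444619 on the plus strand. TGFBR1 lies on chromosome 9 from 99104038 to 99154192, TGFBR2 on chromosome 3 from 30606502 to 30694142 and SKIL on chromosome 3 from 170357678 to 170396835, all on the plus strand. SMAD6, from 66702228 to 66782848, and SMAD3, from 67063763 to 67195195, are close together on the plus strand of chromosome 15. SMAD7 lies on the minus strand of chromosome 18 from 48919853 to 48952052, and TGFBI on the plus strand of chromosome 5 from 136028895 to 136063818.

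Promoter windows of RefSeq (GRCh38.p14, 250 bases before to 50 bases after an annotated start) were found for all 9 genes and searched on both strands for 6 short motifs: GTCTAGAC, the SMAD palindrome; TGACTCA, the AP-1 site; ATGCAAAT, the octamer read by POU factors; AACAATG, a SOX site; CCACACCC, a CACCC box of the kind read by KLF factors; and TGACGTCA, the cAMP response element (CRE). None of the 6 contains another. The 3 windows below are a choice from those that hold a motif, not all of them. SMAD6 and SMAD3 are neighbours that went opposite ways in the GSTA4 line. Of the 300 bases of each window, the first 246 are printed for SMAD6, 250 for SMAD3 and 213 for SKIL. All are 5′ to 3′ on the plus strand, and the capitals mark the motif.
SMAD6, chr15:66701986-66702231: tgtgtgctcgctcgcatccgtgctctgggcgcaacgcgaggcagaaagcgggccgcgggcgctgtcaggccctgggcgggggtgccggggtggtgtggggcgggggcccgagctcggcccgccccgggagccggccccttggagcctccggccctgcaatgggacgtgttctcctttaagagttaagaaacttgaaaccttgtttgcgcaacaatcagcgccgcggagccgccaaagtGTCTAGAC
SMAD3, chr15:67065352-67065601: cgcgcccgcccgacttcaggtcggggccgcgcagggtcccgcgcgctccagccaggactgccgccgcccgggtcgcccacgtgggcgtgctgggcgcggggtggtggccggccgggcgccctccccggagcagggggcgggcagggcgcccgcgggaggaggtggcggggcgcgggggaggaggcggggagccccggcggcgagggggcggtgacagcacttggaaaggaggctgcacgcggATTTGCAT
SKIL, chr3:170357465-170357677: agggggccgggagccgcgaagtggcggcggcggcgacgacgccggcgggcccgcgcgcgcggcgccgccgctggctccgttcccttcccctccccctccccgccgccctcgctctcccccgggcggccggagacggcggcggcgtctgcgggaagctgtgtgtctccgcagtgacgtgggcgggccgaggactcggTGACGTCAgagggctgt

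With the RefSeq start base counted as 0, the SMAD palindrome of SMAD6 lies at -12 to -5. By GENCODE, whose SMAD6 start differs, its last 4 bases lie in an exon of the gene. It is rare in such windows: 70 of 27303 genes hold it, or 0.256%. The capitals in the SMAD3 window are the octamer read on the other strand, at -8 to -1, and 2.19% of genes hold an octamer in a window. This window is 1 of 5 for SMAD3 and lies inside the GENCODE gene, outside its exons. The CRE of SKIL lies at -54 to -47, and 2.25% of genes hold one. AP-1 sites were found at -6 to 0 in a window of TGFBR2 and at -56 to -50 in another window of SMAD3, against 6.05% of genes. A match is a string of letters; binding was not measured.

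Library totals ran from 12630675 to 17045454 reads, and values are given as CPM, a gene's reads relative to the TMM-scaled size of its library, a unit that is not corrected for gene length. GSTA4 reads stood at 395.9 to 430.1 CPM in the GSTA4 libraries and at 4.41 to 22.5 CPM elsewhere, and POU5F1, SOX2 and KLF4 were each at 621.9 CPM or more in the OSK libraries and were at most 2.67 CPM elsewhere. GFP replicate 1 was the library with the most genes detected, 27349 where the others had 19488 to 22073, and WT replicate 1 stood apart from the other 2 WT libraries (chi-square per degree of freedom 15 and 17.4, against 2.54 between those 2). Without WT replicate 1 the calls of the 9 genes changed in GFP against WT, where TGFB2 gained a call and SMAD3 lost its own, and without GFP replicate 1 TGFB1 lost its call in OSK against GFP. Of 14 RPE markers, 12 passed the filter; their summed level was 2189 to 2658 CPM over the WT and GFP libraries, 1576 to 1648 CPM in GSTA4 and 1401 to 1468 CPM in OSK. That sum includes KRT8 (477.7 to 1469 CPM) and KRT18 (217.2 to 498.3 CPM), keratins of simple epithelia. The markers did not all move one way: 1 was higher and 8 lower in GSTA4 than in GFP, 1 higher and 11 lower in OSK than in GFP, and 9 higher and 2 lower in GFP than in WT. LRAT, a visual cycle enzyme, was higher in GSTA4 than in GFP by 1.87 on the log2 scale (adjusted p = 1.15e-06), and RDH5, another, was higher in OSK by 1.44 (adjusted p = 2.15e-06). RPE65, the defining enzyme of the visual cycle, was at 0 to 0.64 CPM in single libraries. Of 8 mesenchymal markers, 3 passed the filter. The summed level was 1041 to 1132 CPM in WT, 1162 to 1269 in GFP, 1205 to 1365 in GSTA4 and 769.4 to 799.1 in OSK. That sum is mostly PDGFRB and VIM, at 659.1 and 548.1 CPM as means in GFP. Markers that did not pass were at most 1.29 CPM in a library. In GSTA4 against GFP, 2 of the 3 were higher, VIM among them (log2 difference 0.41), and PDGFRB was lower (-0.29). In OSK against GFP all 3 were lower. The part of these marker differences in the results below was not tested.

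All 9 genes passed the filter on low counts and differed among the 4 groups by the F test (adjusted p at most 2.96e-06), as did 66.9% of the 15179 genes tested. TGFBI had the widest range of group means, 6.01-fold from WT to GSTA4, followed by SMAD7 at 3.09-fold and TGFB2 at 3.03-fold. The other 6 ranged from 1.61-fold for TGFBR2 to 2.39-fold for SKIL. On the log2 scale the range was 0.69 to 2.59, beside a median of 0.55 over all genes tested. In bulk RNA a lower share of cells expressing a gene and less RNA of it per cell cannot be told apart.

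**Figure D1:**
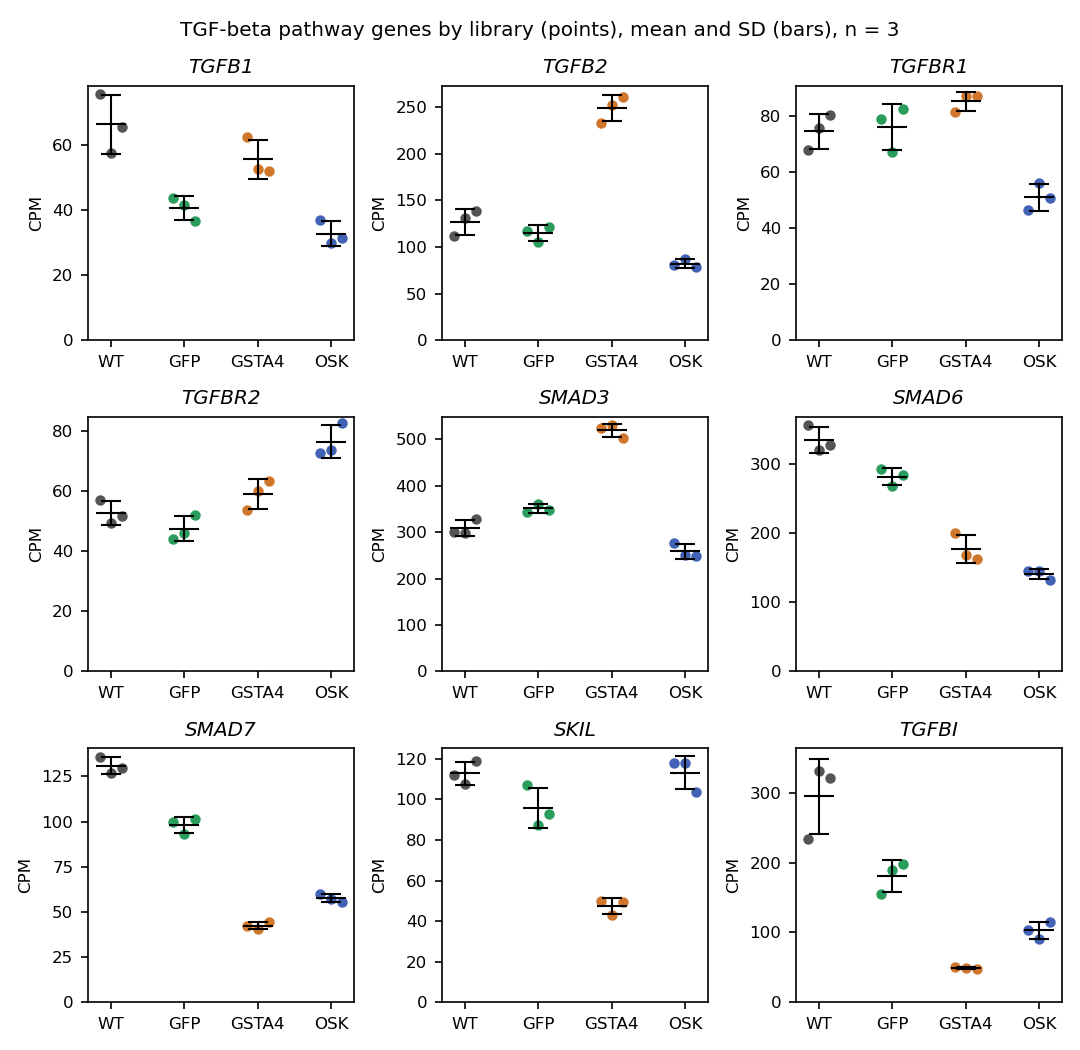
CPM of the 9 genes in each of the 12 libraries (points), by group on the horizontal axis, with the mean and SD of 3 libraries as bars. TGFBI and SMAD7 are lowest in GSTA4, TGFB2 and SMAD3 highest there, and TGFBR2 highest in OSK.

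Relative to GFP, both ligand genes were higher in the GSTA4 line and lower in the OSK line. Relative to WT, TGFB1 was also lower in OSK but was not higher in GSTA4. The call of TGFB1 in OSK against GFP was lost on leaving out single libraries. TGFB2, the predominant TGF-beta form in the eye, stood at 233.3, 252.8 and 261.2 CPM in GSTA4, at 117.2, 105.6 and 122.0 CPM in GFP, at 112.1, 130.7 and 138.4 CPM in WT, and at 81.3, 87.2 and 78.2 CPM in OSK. Every GSTA4 library was above, and every OSK library below, all WT and GFP libraries. The log2 difference from GFP was 1.12 (SE 0.0763, adjusted p = 4.78e-10) in GSTA4 and -0.48 (SE 0.0782, adjusted p = 3.59e-05) in OSK, while GFP and WT overlapped (-0.14, 95% interval -0.30 to 0.02, adjusted p = 0.192). Without WT replicate 1, TGFB2 was lower in GFP than in WT by a log2 difference of -0.23, which passed the threshold (adjusted p = 0.0213).

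TGFB1, the most widely expressed ligand of the family, was highest in WT, at 75.7, 57.5 and 65.5 CPM. It stood at 43.6, 41.6 and 36.6 CPM in GFP, at 62.5, 52.5 and 51.8 CPM in GSTA4 and at 37, 29.8 and 31.3 CPM in OSK. The GSTA4 libraries lay above all GFP libraries (log2 difference 0.46, SE 0.106, adjusted p = 0.00265) and overlapped with WT (-0.25, 95% interval -0.47 to -0.04, adjusted p = 0.0592). TGFB1 passed the threshold in GSTA4 against WT, always as lower, without WT replicate 2 (-0.34, adjusted p = 0.0164), GSTA4 replicate 1 (-0.34, adjusted p = 0.0222) or OSK replicate 1 (-0.26, adjusted p = 0.0481), with no filter (adjusted p = 0.0207) and with the replicate number as a block (adjusted p = 0.00963). The OSK libraries lay below all WT libraries (-1.02, adjusted p = 1.01e-07) and overlapped with GFP (-0.31, SE 0.11, adjusted p = 0.0256). That last call was lost on leaving out each of 4 libraries in turn: the adjusted p was 0.106 without GFP replicate 1, 0.0793 without GFP replicate 2, 0.127 without OSK replicate 2 and 0.0919 without OSK replicate 3. TGFB1 was lower in GFP than in WT by a log2 difference of -0.71 (adjusted p = 7.65e-05). Exons of TGFB1 share 215 bases with HNRNPUL1 on the opposite strand, and the strand setting of the counting is not given in the sources used here. HNRNPUL1 differed by at most 0.18 on the log2 scale in any of the 6 contrasts.

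TGFB2 gained on TGFB1 in the GSTA4 line. As a ratio of CPM per kilobase of exon within each library, TGFB2 to TGFB1 was 2.35 to 3.17 in GSTA4, 1.6 to 2.1 in GFP, 1.38 to 1.84 in OSK and 0.931 to 1.43 in WT. The GSTA4 ratios lay above all others, those of GFP and OSK overlapped, and those of OSK and WT overlapped. Exons of TGFB2, 5151 bases in all, share 1371 bases with TGFB2-OT1 on the same strand, which had 0 reads. How reads from shared bases were assigned is not given in the sources used here, so TGFB2 per kilobase may be understated.

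The receptors differed most in the OSK line, and there in opposite directions. TGFBR2, the receptor that binds the ligand first, stood at 72.8, 73.8 and 82.7 CPM in OSK, at 53.6, 60.1 and 63.4 CPM in GSTA4, at 57, 49.3 and 51.9 CPM in WT and at 44.2, 46.1 and 52.1 CPM in GFP. The OSK libraries were above all others, with a log2 difference from GFP of 0.69 (SE 0.0846, adjusted p = 1.12e-06). GSTA4 was above GFP by 0.31 (SE 0.0855, adjusted p = 0.00874), a call lost without GSTA4 replicate 3 (0.26, adjusted p = 0.0542). GSTA4 overlapped with WT (0.16, 95% interval -0.01 to 0.34), as did GFP (-0.15, 95% interval -0.33 to 0.03).

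TGFBR1, the kinase that phosphorylates SMAD2 and SMAD3, stood at 46.3, 56 and 50.9 CPM in OSK, below all other libraries. It was at 67.9, 75.6 and 80.3 CPM in WT, at 79.1, 67 and 82.6 CPM in GFP and at 81.4, 87.3 and 87.1 CPM in GSTA4. The log2 difference of OSK from GFP was -0.58 (SE 0.0871, adjusted p = 1.53e-05). No difference of TGFBR1 among WT, GFP and GSTA4 passed the threshold: GSTA4 differed from GFP by 0.16 (95% interval -0.02 to 0.34, adjusted p = 0.171) and GFP from WT by 0.03 (95% interval -0.15 to 0.21, adjusted p = 0.832). All GSTA4 libraries lay above all WT libraries (0.19, 95% interval 0.02 to 0.37, adjusted p = 0.0791), and this difference was called without WT replicate 3 (0.25, adjusted p = 0.0441) and, at the threshold, with the replicate number as a block (adjusted p = 0.05). Per kilobase, TGFBR2 to TGFBR1 was 1.92 to 2.36 in OSK and 0.813 to 1.22 over the other 9 libraries.

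**Figure D2:**
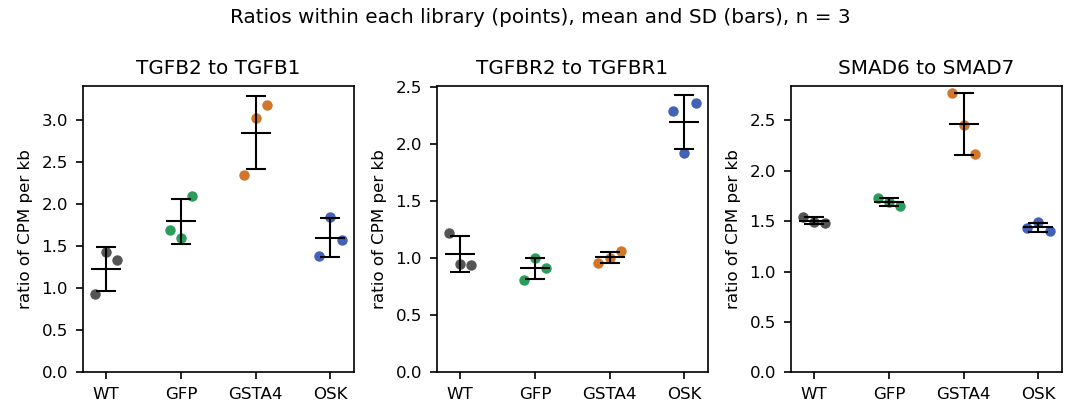
Ratios of CPM per kilobase of exon within each library (points), with the mean and SD of 3 libraries, for TGFB2 to TGFB1, TGFBR2 to TGFBR1 and SMAD6 to SMAD7. The first and last ratios are highest in GSTA4 (means 2.85 and 2.46) and the middle ratio is highest in OSK (2.19).

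SMAD3, which binds DNA and carries the signal to target genes, followed TGFB2 in direction. It stood at 524.1, 531.2 and 504.1 CPM in GSTA4, at 344.5, 361.1 and 347.9 CPM in GFP, at 300.1, 299.1 and 328.8 CPM in WT and at 277.8, 250.9 and 247.9 CPM in OSK. The groups did not overlap. The log2 difference from GFP was 0.57 (SE 0.0604, adjusted p = 3.86e-07) in GSTA4 and -0.44 (SE 0.0608, adjusted p = 5.01e-06) in OSK. GFP was above WT by 0.18 (adjusted p = 0.0348), which did not pass the threshold in 10 of the alternatives tried. TGFB1, TGFB2 and SMAD3 thus formed 3 of 492 genes, 3.24% of those tested, that were higher in GSTA4 and lower in OSK than in the GFP libraries that both contrasts share.

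SMAD7 and SMAD6, the inhibitory SMADs, were lower in both the GSTA4 and the OSK line than in GFP and WT. SMAD7, which blocks TGFBR1 and recruits ubiquitin ligases to it, stood at 42.5, 40.3 and 44.3 CPM in GSTA4 and at 59.9, 57.4 and 55.6 CPM in OSK. It was at 99.5, 93.4 and 101.4 CPM in GFP and at 135.9, 126.6 and 129.9 CPM in WT, so that none of the 4 groups overlapped. The log2 difference from GFP was -1.21 (SE 0.0652, adjusted p = 1.25e-11) in GSTA4 and -0.77 (SE 0.0637, adjusted p = 3.70e-09) in OSK. GFP itself was below WT by -0.42 (adjusted p = 7.18e-05), and the difference of GSTA4 from WT was -1.63 (adjusted p = 8.43e-14).

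SMAD6, whose promoter window with the SMAD palindrome is printed above, stood at 145.5, 146.0 and 132.7 CPM in OSK and at 199.8, 168.4 and 162.8 CPM in GSTA4. It was at 292.7, 268.9 and 284.5 CPM in GFP and at 357.1, 321.1 and 327.7 CPM in WT, again with no overlap between groups. Relative to GFP, SMAD6 was 1.99-fold lower in OSK (SE 0.0737 on the log2 scale, adjusted p = 6.34e-10) and 1.59-fold lower in GSTA4 (log2 difference -0.67, SE 0.073, adjusted p = 5.04e-07). GFP was below WT by -0.25 (adjusted p = 0.0168), a call lost without GFP replicate 2 (adjusted p = 0.0858). The order of GSTA4 and OSK was the reverse of that for SMAD7: OSK was below GSTA4 for SMAD6 (-0.32, adjusted p = 0.00105) and above it for SMAD7 (0.44, adjusted p = 1.14e-05). Per kilobase, SMAD6 to SMAD7 was 2.16 to 2.77 in GSTA4 and 1.4 to 1.73 over the other libraries.

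SKIL, or SnoN, a corepressor that holds SMAD complexes inactive and is degraded when the pathway is switched on, was lowest in the GSTA4 line. It stood at 49.8, 43 and 49.5 CPM in GSTA4, at 107.0, 87.6 and 92.8 CPM in GFP, at 112.2, 107.7 and 118.7 CPM in WT and at 118.0, 117.9 and 103.8 CPM in OSK. The GSTA4 libraries were below all others, with a log2 difference from GFP of -1.01 (SE 0.0825, adjusted p = 7.02e-09). OSK was above GFP by 0.24 (SE 0.0787, adjusted p = 0.0161) with overlapping libraries, and this call was lost with scaling by library size alone (0.17, adjusted p = 0.112) and on leaving out GFP replicate 2, GFP replicate 3, OSK replicate 1 or OSK replicate 2. The difference between OSK and WT did not pass the threshold (0.00, 95% interval -0.16 to 0.17). SKIL in GFP was below WT by -0.24 (adjusted p = 0.0346), a call lost with library size alone (adjusted p = 0.0542), with the 6 libraries compared alone (0.0736) and without WT replicate 3 (0.11), GFP replicate 2 (0.18) or GFP replicate 3 (0.108).

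TGFBI, a secreted matrix protein that binds collagens and integrins, had the largest change of the 9 genes. It stood at 50.2, 48.5 and 48.4 CPM in GSTA4, at 103.3, 91 and 114.7 CPM in OSK, at 154.8, 188.7 and 197.7 CPM in GFP and at 233.1, 330.4 and 321.3 CPM in WT. The groups did not overlap, and the order from low to high was GSTA4, OSK, GFP, WT. The log2 difference from GFP was -1.88 (SE 0.117, adjusted p = 1.06e-10) in GSTA4 and -0.81 (SE 0.111, adjusted p = 4.31e-06) in OSK. GFP was below WT by -0.71 (adjusted p = 9.43e-05), and by -0.86 without WT replicate 1, the lowest WT library for this gene.

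Counted over the 9 genes, 4 were higher and 4 lower in GSTA4 than in GFP, where 29.2% of all genes tested were called, 14.7% higher and 14.6% lower. In OSK against GFP, 2 were higher and 7 lower, beside 45.9% of all genes called, 23.1% higher and 22.8% lower. Scaling by library size alone split all calls of that contrast into 2782 higher and 4167 lower, against 3508 and 3454 with TMM. GFP differed from WT in 6 of the 9 genes, 1 higher and 5 lower, beside 22.2% of all genes, 11% higher and 11.2% lower; without GFP replicate 2, 3 of the 9 were called. Against WT, 2 genes were higher and 4 lower in GSTA4 (background 38.6%, 19.7% higher and 19% lower), and 1 was higher and 7 lower in OSK (background 45.4%, 22.7% higher and 22.7% lower). OSK differed from GSTA4 in all 9, 4 higher and 5 lower (background 47.8%, 24.1% higher and 23.8% lower).

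The libraries of GSTA4 and GFP did not overlap for 8 of the 9 genes, beside 42.3% of all genes tested, and those of OSK and GFP for 7, beside 54.7%. For GFP and WT the count was 6, beside 34.6%, for GSTA4 and WT 7, beside 49%, and for OSK and WT 8, beside 53.5%. OSK and GSTA4 did not overlap for any of the 9, beside 58% of all genes. The median size of the log2 difference in the 9 genes was 0.67 in GSTA4 against GFP and 0.58 in OSK against GFP, beside 0.22 and 0.31 over all genes tested.

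**Figure D3:**
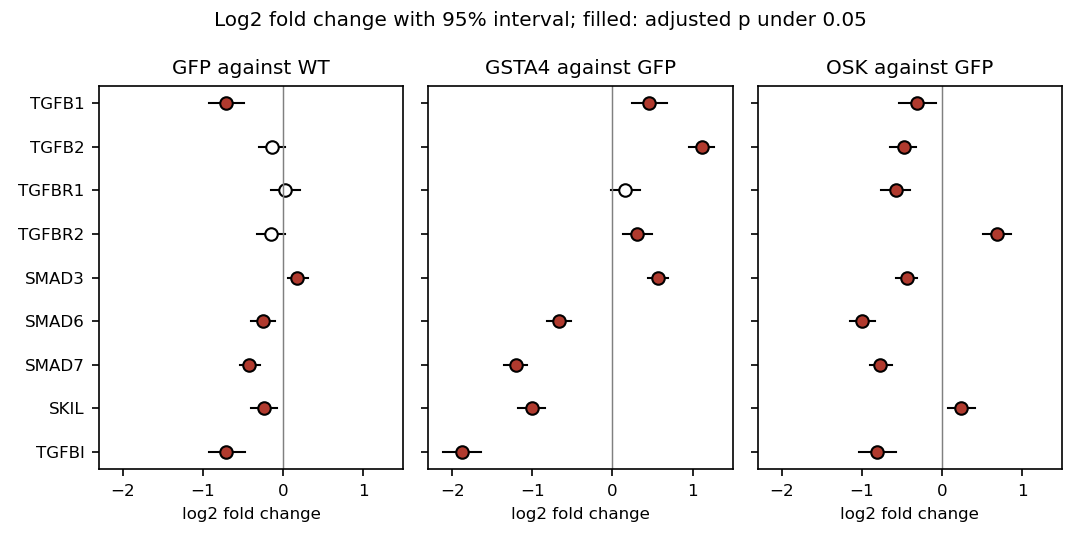
Log2 differences of the 9 genes (points) with 95% intervals (lines) for GFP against WT, GSTA4 against GFP and OSK against GFP; filled points passed the threshold. TGFB1, TGFB2 and SMAD3 lie above 0 for GSTA4 against GFP and below 0 for OSK against GFP, and SMAD6, SMAD7 and TGFBI lie below 0 in both.

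SMAD6, SMAD7 and TGFBI were lower in GSTA4 and in OSK than in both GFP and WT, with all 4 contrasts called, a pattern held by 3.62% of the genes tested. SMAD3, SMAD6, SMAD7 and TGFBI were called in all 6 contrasts, as were 2.2% of the genes tested. SKIL was lower in GSTA4 and higher in OSK than in GFP, as were 2.94%. These patterns rest on shared control libraries, and no test of the pattern itself was made.

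Compared per kilobase of exon, the levels in WT were highest for SMAD6 at 39.2 CPM per kb, TGFBI at 37.8 and SMAD3 at 33.9, and lowest for TGFBR1 at 10.9 and TGFBR2 at 11.2. In the GSTA4 line the order changed at both ends. SMAD3 led at 57 CPM per kb, followed by TGFB2 at 48.4, while SKIL at 6.1 and TGFBI at 6.28 were lowest. In OSK, SMAD3 at 28.4 was first, SMAD6 at 16.5, TGFBR2 at 16.3 and TGFB2 at 16 lay side by side, and TGFBR1 at 7.46 was last. These levels use the exon lengths of GENCODE release 29, which may not be the annotation behind the counts. The place of TGFB2 in these orders is also limited by its exon overlap with TGFB2-OT1. Exons of SMAD3, 9113 bases in all, share 182 bases with AC087482.1 on the opposite strand, for which no count was available.

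Genes around the ligands were read from lists for each step of the pathway. All these lists were chosen with earlier results of these data known, so their counts do not speak for such genes in general. Of 9 ligand and latent-complex genes, 7 passed the filter, the members TGFB1 and TGFB2 among them. In GSTA4 against GFP, 3 were higher, both members among them, and 2 were lower (median log2 difference 0.06). In OSK against GFP, none was higher and 4 were lower, again with both members among them (median -0.28). Without GFP replicate 2, 2 were lower in OSK. Over all genes tested, 29.2% were called in GSTA4 against GFP and 45.9% in OSK against GFP, with medians of 0.01 and -0.02, and the counts of the lists that follow stand beside these. LTBP4, a latent TGF-beta binding protein, was at 106.0 CPM in GSTA4 and 49.6 in GFP (log2 difference 1.10, adjusted p = 1.30e-09). LTBP3 was at 438.4 against 929.9 CPM (-1.08, adjusted p = 2.00e-07). LTBP2, a microfibril protein of that family, fell from 503.6 CPM in GFP to 58.4 in GSTA4 (-3.11, adjusted p = 1.06e-10) and 150.8 in OSK (-1.74, adjusted p = 9.35e-08). TGFB3, the other ligand of the family, stood at 1.62 to 3.63 CPM as a group mean.

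Genes that release active ligand were lower in GSTA4 wherever they were called: 8 of 11 tested were lower and none higher, with a median log2 difference of -0.46 beside 0.01 over all genes. They include MMP2, a gelatinase (-3.56, adjusted p = 3.51e-12), THBS1, or thrombospondin 1 (-1.37, adjusted p = 4.58e-09), and the integrin genes ITGB5 (-1.08, adjusted p = 2.97e-10) and ITGAV (-0.64, adjusted p = 7.74e-08). GFP itself was below WT for 5 of the 11 and above it for none, where 22.2% of all genes tested were called. Without GFP replicate 2, it was below WT for 2. In OSK against GFP, 3 were higher and 3 lower, with a median of 0.11 beside -0.02. BMP1, a protease that cleaves procollagens and latent-complex proteins, rose from 137.1 to 462.4 CPM (1.75, adjusted p = 1.37e-14), and the integrin gene ITGB8 rose by 0.76 (adjusted p = 3.95e-06). MMP14 (-0.77, adjusted p = 5.32e-09) and THBS1 (-0.73, adjusted p = 1.05e-05) fell.

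Of 7 receptor genes, 6 were tested, the members TGFBR1 and TGFBR2 among them. In each of the 2 contrasts with GFP, 1 was higher and 1 lower. That share is close to the 29.2% of all genes called for GSTA4 and below the 45.9% for OSK. The higher gene was the member TGFBR2 in both contrasts, and the lower gene in OSK was the member TGFBR1. TGFBR3, or betaglycan, the coreceptor that presents TGFB2, was at 43.5 CPM in GSTA4 against 106.9 in GFP (-1.30, adjusted p = 3.91e-08) and at 124.6 CPM in OSK (0.22, adjusted p = 0.112). In WT it was at 178.6 CPM. Relative to WT it was lower in GFP (-0.74, adjusted p = 7.93e-05) and in OSK (-0.52, adjusted p = 5.62e-04). The TGFBR3 libraries in GSTA4, where TGFB2 was highest, were below those of all other groups. Among the 6 genes of the SMAD list, SMAD2, the other receptor-activated SMAD of the pathway, differed little, by -0.20 in GSTA4 (adjusted p = 0.0162) and 0.23 in OSK (adjusted p = 0.00413). The first of these was lost without GFP replicate 1, GSTA4 replicate 1 or GSTA4 replicate 3 (adjusted p 0.0581, 0.0754 and 0.057). SMAD4 was at 64.9 to 74.1 CPM as a group mean.

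All 14 inhibitor genes were tested, the members SMAD6, SMAD7 and SKIL among them. In GSTA4 against GFP, 9 were lower and none higher (median -0.25 beside 0.01 over all genes), and 6 were lower without GFP replicate 3. Besides the members these include PMEPA1, which sequesters SMAD2 and SMAD3 (-0.97, adjusted p = 2.02e-09), and its relative LDLRAD4 (-2.34, adjusted p = 1.75e-07). In OSK, 7 were lower and 2 higher, and with scaling by library size alone none was higher. The decoy receptor gene BAMBI fell there from 79.6 to 39.8 CPM (adjusted p = 5.32e-09), and the corepressor gene TGIF2 by 1.03 on the log2 scale (adjusted p = 1.15e-07).

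Most TGF-beta target genes of the list read here were lower in the GSTA4 line than in GFP. The list was chosen with earlier results of these data known, so its counts do not speak for target genes in general. Of 37 listed, 28 passed the filter, the members SMAD7, SKIL and TGFBI among them. LTBP2 and PMEPA1 are counted here and also in the lists above. In GSTA4 against GFP, 22 were lower and 2 higher, with a median log2 difference of -1.29 beside 0.01 over all genes tested. The 4 that did not pass the threshold were FN1, TPM1, ADAM12 and ANGPTL4. Against WT, 20 of the 28 were lower in GSTA4 and 3 higher, where 38.6% of all genes tested were called. GFP itself was below WT for 12 of the 28 and above it for 2, where 22.2% of all genes tested were called. COL1A1, a chain of type I collagen, fell from 82.5 to 4.52 CPM (-4.19, adjusted p = 2.96e-12), JUNB, an AP-1 subunit, from 187.4 to 42.6 CPM (-2.14, adjusted p = 1.76e-14), and CDKN2B, the cell cycle inhibitor p15, from 204.0 to 58.7 CPM (-1.80, adjusted p = 1.08e-11). ITGA11, a collagen-binding integrin chain, was at 129.6, 120.1 and 148.3 CPM in GFP and at 0.0635, 0 and 0.275 CPM in GSTA4. The 2 higher genes were ACTA2, or smooth muscle actin (0.43, adjusted p = 0.0495), and CDKN1A (0.31, adjusted p = 0.0045). With RLE scaling in place of TMM, and also without GFP replicate 1, 1 was higher. ACTA2, CDKN1A and the 4 that did not pass the threshold, and TAGLN below, fall outside the rule for naming genes. They were chosen after their values were seen.

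In OSK the target genes split. Against GFP, 17 were lower and 7 higher, with a median of -0.63 beside -0.02. CCN2, or connective tissue growth factor, fell from 1233 to 589.8 CPM (-1.06, adjusted p = 6.51e-10), and COL1A1 (-1.98) and TAGLN (-2.18) were also lower. LOX, which crosslinks collagen, rose from 123.7 to 413.3 CPM (1.74, adjusted p = 4.98e-10), SPHK1, or sphingosine kinase 1, from 10.8 to 38.1 CPM (1.82, adjusted p = 8.24e-10) and BHLHE40, a transcriptional repressor, from 111.4 to 256.4 CPM (1.20, adjusted p = 4.41e-10). LOX, SPHK1 and BHLHE40 were lower in GSTA4 than in GFP (-1.96, -0.75 and -1.71). Compared directly, OSK was above GSTA4 for 17 of the 28 and below it for 5, with a median of 1.06 beside -0.01. Leaving out GFP replicate 1 left 22 lower in GSTA4 and 16 lower in OSK.

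**Figure D4:**
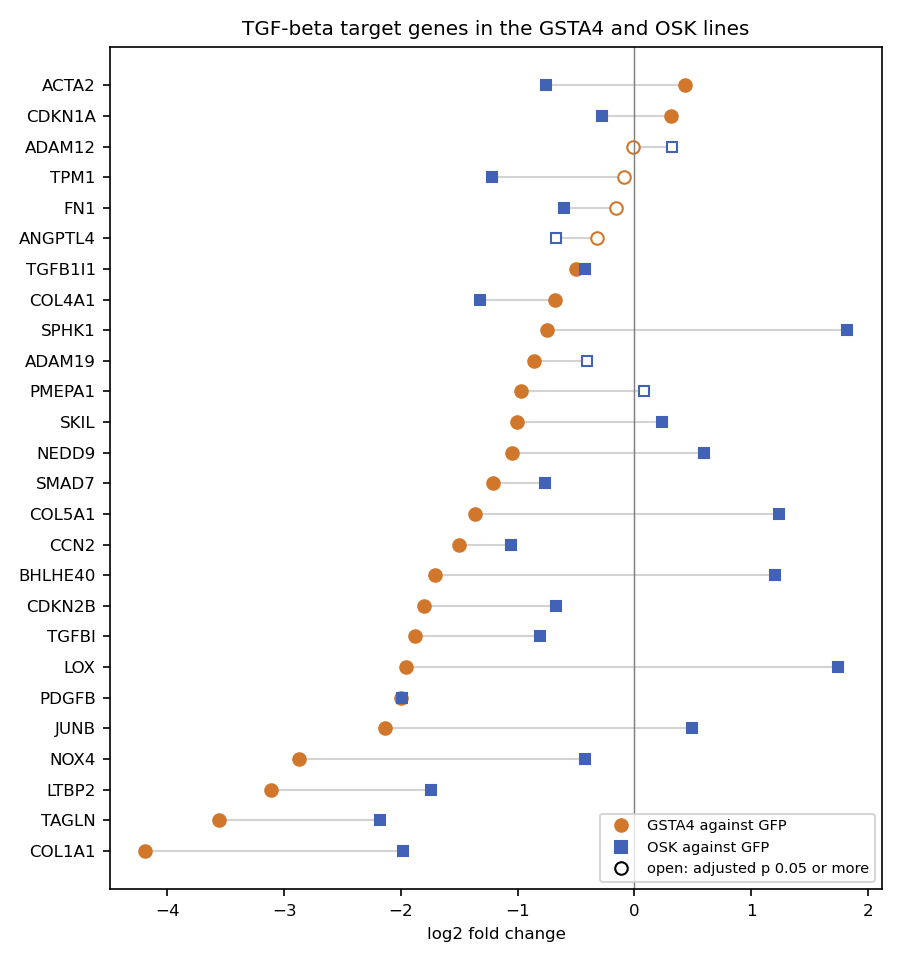
Log2 differences from GFP for TGF-beta target genes, in the GSTA4 (circles) and OSK (squares) lines, without ITGA11; open symbols did not pass the threshold. In GSTA4 most points lie below 0, while in OSK genes such as LOX (1.74) and SPHK1 (1.82) lie above 0 and CCN2 (-1.06) below.

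Among the 13693 genes compared, the profiles nearest to each of the 9 over the 12 libraries were found by the root mean square (RMS) difference of centred log2 CPM. TGFBI was nearest to 2 genes of the target list, CDKN2B (RMS 0.163) and CCN2 (0.271), against a spread of 1.01 (SD, log2) of TGFBI itself. SMAD7 was nearest to SFRP1, a secreted inhibitor of WNT signalling (0.103), which stood at 890.1, 664.8, 282.1 and 442.3 CPM in WT, GFP, GSTA4 and OSK, and to TEX2 (0.116). SMAD6 was nearest to SPNS2, a sphingosine-1-phosphate transporter (0.0969), and to the WNT receptor gene FZD2 (0.106). SMAD3 was nearest to NUTF2, a nuclear transport factor (0.0699), and to STK11IP (0.0941).

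TGFB2 was nearest to FLNC, or filamin C (0.125), which stood at 1246 CPM in GSTA4 and 459.0 in OSK, and to GAMT (0.157). TGFB1 was nearest to SLC26A1 (0.119) and MXI1 (0.13), TGFBR1 to EPB41L2 and TAB3 (both 0.103), and TGFBR2 to EMC7 (0.0925) and PMM1 (0.0949). For SKIL, ASIC3 (0.153) is given, and the other of its 2 nearest genes is not reported here. These values are descriptions over libraries that share group and scaling.

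**Figure D5:**
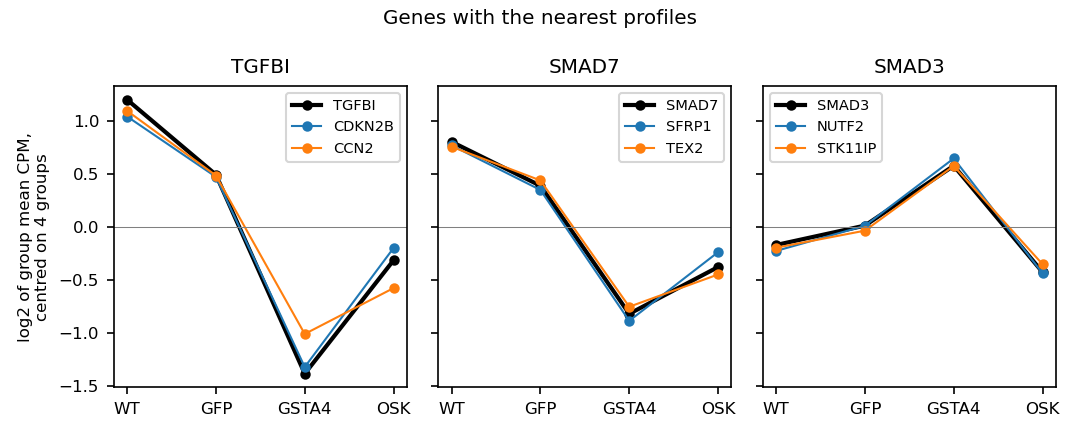
Log2 of the group mean CPM, centred on the 4 groups, for TGFBI, SMAD7 and SMAD3 (black) and the 2 nearest genes of each. The lines of TGFBI, CDKN2B and CCN2 fall to their lowest in GSTA4, and those of SMAD3, NUTF2 and STK11IP are highest there.

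Genes near the members on the chromosome had medians close to those of all genes in most contrasts. SMAD3 and SMAD6 have 73 tested neighbours each within 5 Mb, whose median log2 difference from GFP was -0.09 in GSTA4 and -0.07 in OSK, while SMAD3 was at 0.57 and SMAD6 at -0.67 in GSTA4. For TGFBI, with 99 neighbours, the median was 0.02 in both contrasts, and for SMAD7, with 29, it was 0.01 and -0.10. For SKIL the 22 neighbours had a median of 0.34 in OSK against GSTA4, beside 1.25 for SKIL.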

How the data were processed

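Poly(A) RNA of 12 ARPE-19 libraries in 4 groups of 3 was sequenced by the authors. The values deposited are unnormalised counts of reads for each gene, whole numbers that sum to a different total in each library. The submitters' processing notes name STAR 2.7.1a and featureCounts 1.6.2; the annotation release and strand setting are not given in the sources used here. Of 60605 lines, 20014 had no symbol (at most 0.822% of a library's reads) and were left out.

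The filterByExpr filter kept 15179 genes. All 12 libraries entered 1 edgeR 4.0.16 quasi-likelihood fit (limma 3.58.1, R 4.3.3) with TMM scaling, a mean per group, no covariate and a prior count of 0.125. It had 8 residual and 12 prior degrees of freedom and a biological coefficient of variation of 7.91%. P-values are two-sided and adjusted by Benjamini-Hochberg over all genes of a contrast, with 0.05 as the threshold, and intervals are 95%. A share of all genes called is given beside the members' counts. The fit was also run on counts simulated from its own means and spread. Those libraries were independent by construction, so that run cannot address shared cultures or an outlying library.

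The members and lists were chosen with earlier results of these data known. Besides the 9 members, the text names up to 4 genes per list and contrast with GFP: those with the lowest adjusted p among genes past the threshold, with at least 1 CPM in a group mean and no overlap of libraries. It also names the 2 nearest profiles per member. Other list genes are given by level. Not every gene that the rule names is given, and 1 gene of the target list is counted with the list but not reported here.

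The alternatives tried changed the scaling (RLE, or library size alone), the filter (none, or a mean of at least 1 CPM), the tool (DESeq2 1.42.0), the libraries (each left out, or the 6 compared alone) and the threshold (a minimum log2 change of 0.5), or added the replicate number to the fit as a block. Depth allows up to 3 reads where none was counted. Gene positions are from GENCODE release 29 and promoter windows from RefSeq, both matched by symbol.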

Additional observations from a re-analysis of the deposited data

How the results depend on the processing

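Over the alternatives, 1080 values of the 9 genes were recomputed: 1017 kept their direction and their side of the threshold, 47 kept the direction and lost the call, 8 gained one and 8 changed sign. All sign changes were in differences near 0 that were not called. SKIL in OSK against WT was at -0.06 with library size alone, -0.00 with a mean of at least 1 CPM, and -0.02 on leaving out OSK replicate 1 or OSK replicate 2. It was -0.00 when WT replicate 1 was dropped and -0.03 when WT replicate 2 was. TGFBR1 in GFP against WT ran from -0.04 (without WT replicate 1) to 0.12 (without GFP replicate 2) and was -0.03 without GFP replicate 3.

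A minimum log2 change of 0.5 is stricter by construction. It left 759 genes and 4 members in GSTA4 against GFP, 2136 and 4 in OSK against GFP, 2243 and 4 in OSK against WT, 1279 genes in GSTA4 against WT and 2511 in OSK against GSTA4. In GFP against WT it left 304 genes and 0 members by edgeR, with 2 members at an unadjusted p under 0.05, while DESeq2 without that minimum called 6. Leaving out each library gave 3 to 6 members in GFP against WT; the lowest was without GFP replicate 2, and the cause was not tested. Besides SMAD3, the calls of SKIL and SMAD6 in that contrast were lost in some alternatives.

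With the replicate number as a block, 4733 genes were called in GSTA4 against GFP, 7270 in OSK against GFP and 3779 in GFP against WT, and 8, 9 and 6 members. In GSTA4 against WT the block gave 6104 genes and raised the members from 6 to 8, with TGFB1 and TGFBR1 added. Of 18 same-numbered pairs of libraries, 3 had correlated deviations over 0.1 (range -0.03 to 0.18), all of them with WT replicate 1, and 8 of 12 libraries correlated best with their own number. Since not every pair exceeded 0.1 and the labels name no shared source, the number is not used as a pairing; the 8 are a hint from the data. With 3 libraries a group, small differences are at the edge of what can be called, and scaling by library size moved the median of all genes by at most 0.07.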

Other observations

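The related activin and BMP branches, which use other receptors of the same superfamily, were read in the same fit. Of 12 activin-branch genes, 8 were tested, with 2 higher and 2 lower in GSTA4 than in GFP and 2 higher and 4 lower in OSK (medians -0.18 and -0.53). Over all genes tested, 29.2% were called in GSTA4 against GFP and 45.9% in OSK against GFP, with medians of 0.01 and -0.02. FST, or follistatin, which traps activins, rose in OSK from 0.77 to 9.54 CPM (log2 difference 3.62, adjusted p = 6.14e-09), while its relative FSTL3 fell from 722.1 to 315.2 CPM (-1.20, adjusted p = 4.97e-11). GDF11, a ligand that signals through SMAD2 and SMAD3, was higher than in GFP in GSTA4 (0.49, adjusted p = 0.00184) and in OSK (0.84, adjusted p = 1.97e-06). Against WT, GDF11 was lower in GFP (-0.45, adjusted p = 0.0059) and higher in OSK (0.40, adjusted p = 0.00416). GSTA4 against WT did not pass the threshold (0.04, adjusted p = 0.776).

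Of 22 BMP-branch genes, 15 were tested, with none higher and 6 lower in GSTA4 and 4 higher and 5 lower in OSK (medians -0.15 and -0.01, beside the same shares and medians of all genes). The ligand gene BMP6 stood at 18.7, 20.3 and 17.8 CPM in GSTA4, 68.5, 74.5 and 89.8 CPM in GFP and 72.2 CPM as the mean of OSK (GSTA4 against GFP -2.04, adjusted p = 9.63e-11). The ID genes, classical BMP targets, did not move as a block. Relative to GFP, ID3 was lower by 1.31 on the log2 scale in each line (adjusted p 2.77e-10 in GSTA4 and 1.10e-10 in OSK). ID2 was lower in OSK (-0.95, adjusted p = 9.62e-10). ID1 was lower in GSTA4 (-0.56, adjusted p = 4.44e-05) and higher in OSK (0.90, adjusted p = 1.61e-08). Against WT, ID1 in OSK did not pass the threshold (0.16, adjusted p = 0.112), while ID1 in GFP was lower (-0.74, adjusted p = 3.15e-06).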
